A study of Caenorhabditis elegans with 30 samples.

Results

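The genes described here encode the proteins of the mitochondrial ribosome of Caenorhabditis elegans. They were taken by name: every gene with a symbol beginning in mrpl- (large subunit) or mrps- (small subunit) was kept if it averaged 1 count or more across all 30 libraries. Of 70 such symbols in the annotation 69 were counted, and all 69 passed, among 16934 genes that passed. By the symbol alone, 40 were assigned to the large and 29 to the small subunit, here and below. The place of each protein in the ribosome was not checked. Polyadenylated RNA was measured in whole hermaphrodites that were placed on plates as L4 larvae, about 100 worms for a sample, kept there for 18 h and so harvested as young adults. The swsn-9 mutants (strain RA503, allele ok1354) were harvested immediately after exposure to 400 mM or 0 mM ethanol. The wild type (strain N2) was harvested immediately after exposure to 400 mM or 0 mM ethanol, or after a further 6 h without ethanol (called N2R here, 400 mM or 0 mM), and each of the 6 groups has 5 libraries. The mutants are 1 strain with 1 allele, so the allele and anything else that separates that strain from N2 cannot be told apart. Nor can 6 h off ethanol and 6 h of age within the exposed worms. It is not stated whether mutants and wild type, or N2 and N2R, were collected on the same days. Differences between collections therefore cannot be told apart from those of genotype or time. swsn-9 encodes a bromodomain subunit of SWI/SNF, a complex that moves nucleosomes.

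Mitochondria keep a small genome of their own, and its messenger RNAs, which encode core subunits of the respiratory chain, are translated by a separate ribosome inside the organelle. The RNA of that ribosome is made from the mitochondrial genome, but every protein in it is encoded in the nucleus, made in the cytosol and imported. The small subunit decodes the messenger RNA and the large subunit forms the peptide bond, and both carry proteins inherited from bacteria together with proteins found only in mitochondria. In worms, knockdown of members such as mrps-5 is a usual way to disturb mitochondrial translation, and it switches on the mitochondrial unfolded protein response and lengthens life.

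By the numbering of the human proteins, 43 members have a bacterial counterpart and 26 are particular to mitochondria. The members were short genes, with a median coding length of 615 bp against 1062 bp for the 15739 protein-coding genes that passed the filter, and strongly expressed ones, with a median mean count of 647.2 against 99. The lowest count of any member in any library was 157. None of the 69 lies on chromosome X, which holds 14.3% of the protein-coding genes, and 22 of them (31.9%) lie on chromosome III, which holds 15.1%. In 26 members (37.7%) the start lies within 500 bp downstream of the end of a protein-coding gene on the same strand, the arrangement of worm operons, against 20% of all protein-coding genes. A pair of members follow each other in this way: mrpl-4 (chromosome V, 8467265 to 8468943, + strand, assembly WBcel235 here and below) starts 105 bp after the end of mrps-2. In the same arrangement, mrps-22 starts 105 bp after dap-3, whose human counterpart is itself a protein of the mitochondrial small subunit. Exons of 19 members overlap another gene, and over 20% of the exon length does so in mrps-16 (27.75%, with ilcr-2) and mrps-18A (24.04%, with iglr-2). The strand used for counting is not stated, so reads in such stretches could belong to either gene.

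Between 11812827 and 23505210 reads were counted per library (median 16480465). Levels are given as CPM, counts scaled to a total of 1000000 per library with the TMM method, which assumes that most genes do not change. The TMM factors ran from 1.02 to 1.15 in the mutant libraries and from 0.798 to 1.01 in wild type, so the scaling itself differed between genotypes. The summed level and most counts of members called are given under both scales. Values of single genes and of the other lists are on the TMM scale unless stated, and those between genotypes in particular depend on it. The library of N2R 400 mM replicate 1 stood apart, with 18% of its counts on ribosomal RNA genes and the lowest factor, 0.798. N2 0 mM replicate 5 (6.43%) and N2R 0 mM replicate 1 (5.75%) were the next, and the other 27 libraries had at most 1.35%. The label of the mutants was checked on the mutated gene: swsn-9 was at 52.3 to 65.5 CPM in the 10 mutant libraries and at 181 to 215 CPM in the 20 wild-type libraries.

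The members were expressed at levels close to each other. Per kilobase of exon, the mean over the 30 libraries ran from 13.3 to 179 CPM, with a median of 48 and quartiles of 39.5 and 56, and 63 of 69 members were within a factor of 2 of the median. mrpl-44 stood highest at 179 CPM per kilobase, 3.73 times the median. It encodes a large subunit protein with a ribonuclease III fold in humans and lies on chromosome III (9084310 to 9089375, − strand), where 9.41% of its exon length overlaps mccc-2 on the same strand. mrpl-11, a counterpart of the bacterial protein at the base of the stalk that receives translation factors, followed at 106, and mrpl-40 at 83.6. The lowest were mrps-31 (13.3), mrpl-45 (18.7) and mrpl-37 (21.6), all particular to mitochondria. The annotated exons of mrps-31 (2164 bp) and mrpl-45 (2140 bp) are far longer than their coding sequence (1149 and 1071 bp), which lowers a level per kilobase of exon. The plot of levels per kilobase shows how far mrpl-44 lies from the rest.

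**Figure D1:**
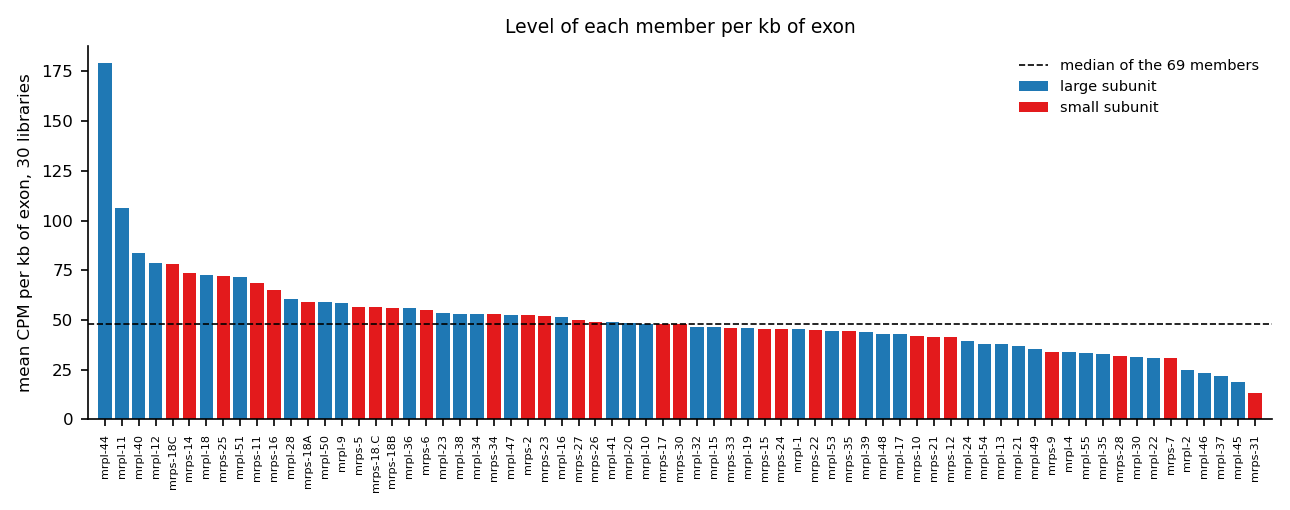
Bars give the mean level of each of the 69 members over the 30 libraries, in CPM per kilobase of exon, ordered from highest to lowest and coloured by subunit. mrpl-44 (179) stands apart, mrps-31 (13.3) is lowest, and 63 members lie within a factor of 2 of the median of 48.

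Summed over the 69 members, the level was lowest in the mutants and highest in unexposed wild type harvested immediately. In the order of the means it was 2798 ± 69.8 CPM in RA503 400 mM, 2865 ± 83.0 in RA503 0 mM, 3008 ± 83.0 in N2R 400 mM, 3273 ± 78.9 in N2R 0 mM, 3382 ± 125.5 in N2 400 mM and 3501 ± 46.3 in N2 0 mM (SD, n = 5 each). Of the neighbours in this order, only N2R 400 mM (2892 to 3126) and N2R 0 mM (3176 to 3366) did not overlap. The ranges of the other neighbours did. Both subunits showed the same order of the group means: the 40 large subunit genes summed to 1600 ± 43.2 CPM in RA503 400 mM and 1999 ± 27.2 in N2 0 mM, and the 29 small subunit genes to 1198 ± 26.9 and 1502 ± 20.2 in the same groups. As plain CPM of the library total, with no TMM factor, the groups drew together. The sums were then 3097 ± 61.3 in RA503 400 mM, 3023 ± 82.7 in RA503 0 mM, 2846 ± 303.6 in N2R 400 mM, 3175 ± 129 in N2R 0 mM, 3335 ± 92.8 in N2 400 mM and 3327 ± 97.5 in N2 0 mM. On that scale N2R 400 mM was the lowest group, and its own lowest library, at 2308, was the one with 18% ribosomal RNA. No test was run on the sums.

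**Figure D2:**
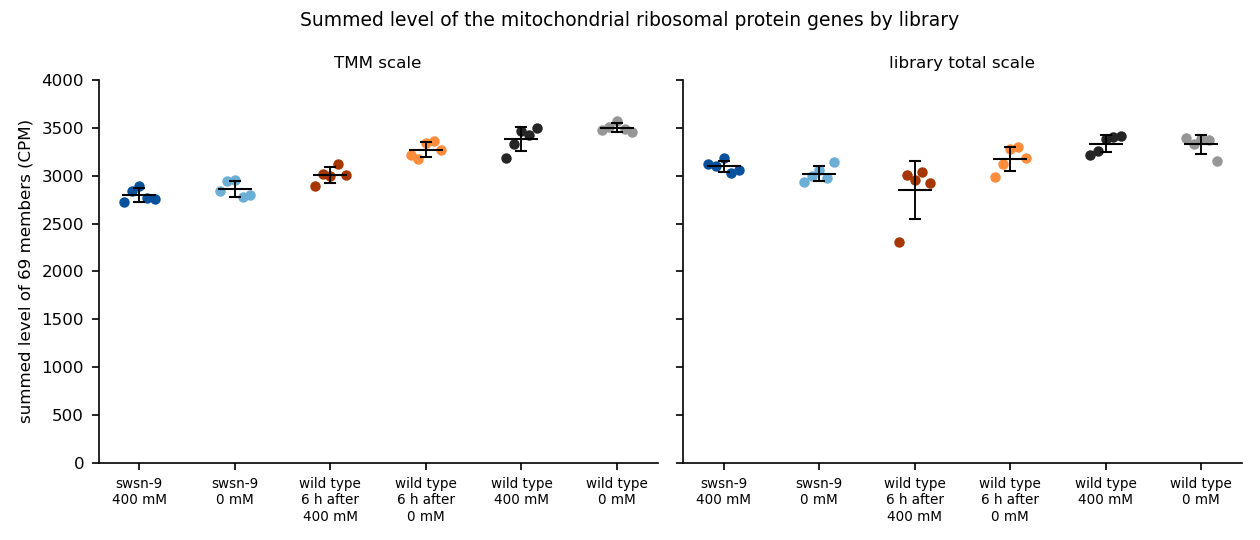
Summed level of the 69 members in each of the 30 libraries, in CPM on the TMM scale and in plain CPM of the library total, by group. Points are libraries and bars are means ± SD of 5; on the TMM scale every mutant library is below every N2 library, and on library totals the gap is smaller and N2R 400 mM replicate 1 falls to 2308.

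The comparison of genotypes asks how far expression of these genes depends on swsn-9. Without ethanol, 63 of 69 members were lower in the mutants than in wild type and none was higher (edgeR's quasi-likelihood test, adjusted p under 0.05 over 16934 genes). Over all genes tested, 22.3% were called lower, 23.2% higher and 45.5% either way. All 29 mrps- genes were among the 63, with 34 of the 40 mrpl- genes. The log2 fold changes of the members ran from −0.55 to −0.03 with a median of −0.29 (−18.1%), and all 69 were negative, whereas the median over all genes was 0.06. In 53 members all 5 mutant libraries were below all 5 wild-type libraries, which was so for 15% of all genes (15.2% were separate in the other direction). Among the 4922 protein-coding genes in the same range of counts (mean of 200 to 2000), 1050 were called higher and 2035 lower, with a median of −0.10. The 26 members directly downstream of another gene and the other 43 had near-identical medians of −0.28 and −0.29.

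The member with the smallest p was mrps-26, a small subunit protein particular to mitochondria (chromosome III, 5234612 to 5236364, + strand), which starts 81 bp after the end of prmt-5. Without ethanol it was at 60.4, 63.1, 60.5, 60.9 and 57.6 CPM in the mutants and at 80.3, 79.5, 83.3, 83.1 and 81.00 CPM in wild type. Every mutant library was below every wild-type library, and the log2 fold change was −0.43 (SE 0.04, adjusted p = 6.05e-10 by edgeR's quasi-likelihood test). With ethanol the mutants had 58.4, 58.9, 63.3, 57.3 and 57.8 CPM, and wild type had 71.4, 77.4, 82.1, 77.1 and 77.8 CPM. The groups were again separate, with a log2 fold change of −0.38 (SE 0.04, adjusted p = 2.81e-09).

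mrps-22, also particular to the mitochondrial small subunit (chromosome II, 10582618 to 10584236, + strand), had 62.1, 63.2, 59.1, 58.6 and 52.99 CPM in the mutants and 76.9, 86.7, 81.6, 78.8 and 82.8 CPM in wild type without ethanol. The groups did not overlap and the log2 fold change was −0.46 (SE 0.05, adjusted p = 4.52e-08). Its upstream neighbour dap-3 was lower in the same comparison, with a log2 fold change of −0.37 (SE 0.05, adjusted p = 3.3e-07). The largest fall of all members was that of mrps-23, a gene at a lower level (chromosome III, 9523121 to 9523672, − strand). It had 17.4, 19.5, 20.4, 18.7 and 18.4 CPM in the mutants and 26.2, 29.02, 29.98, 25.3 and 27.2 CPM in wild type without ethanol, separate groups again, and a log2 fold change of −0.55 (SE 0.08, adjusted p = 1.3e-06). mrps-27, a pentatricopeptide repeat protein in humans (chromosome I, 14794288 to 14797167, + strand), fell less but varied little, with 69.8, 71.8, 72.99, 68.7 and 66.5 CPM in the mutants and 89.5, 85.4, 88.1, 84.9 and 85.03 CPM in wild type. That is a log2 fold change of −0.31 (SE 0.04, adjusted p = 1.82e-07). mrps-15, which has a bacterial counterpart (chromosome I, 8690929 to 8692622, − strand), had 50.5, 54.8, 56.4, 49.1 and 47.9 CPM in the mutants and 71.01, 65.2, 62.8, 67.6 and 69.6 CPM in wild type. The groups were separate, and the log2 fold change was −0.38 (SE 0.05, adjusted p = 5.66e-07).

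Of the large subunit, mrpl-12 is the counterpart of the bacterial stalk protein L7/L12, which recruits translation factors (chromosome III, 10707761 to 10708521, + strand). Without ethanol it had 45.1, 49.95, 45.4, 43.2 and 42.6 CPM in the mutants and 63.04, 57.1, 62.3, 65.3 and 61.5 CPM in wild type, with a log2 fold change of −0.45 (SE 0.05, adjusted p = 4.04e-08). With ethanol it had 37.3, 43.3, 40.8, 38.4 and 45.4 CPM in the mutants and 55.7, 55.4, 57.6, 61.4 and 56.4 CPM in wild type. No mutant library reached the lowest wild-type library under either condition, and the log2 fold change with ethanol was −0.48 (SE 0.05, adjusted p = 6.63e-09). mrpl-44 had 302, 309, 286, 276 and 278 CPM in the mutants and 347, 368, 353, 366 and 362 CPM in wild type without ethanol. It is the most abundant member, its groups were separate, and its log2 fold change was −0.31 (SE 0.04, adjusted p = 3.71e-08). mrpl-9, with a bacterial counterpart (chromosome I, 10732543 to 10733666, − strand), had 47.6, 50.4, 53.99, 48.5 and 48.9 CPM in the mutants and 68.2, 68.7, 65.3, 63.3 and 65.8 CPM in wild type, a log2 fold change of −0.41 (SE 0.05, adjusted p = 1.07e-07). Others of the 12 with the smallest p were mrps-18C (−0.40), mrpl-15 (−0.33), mrpl-24 (−0.35) and mrpl-23 (−0.38).

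With ethanol, 61 of 69 members were lower in the mutants than in wild type and none was higher, while 25.6% of all genes were lower, 26.8% higher and 52.4% changed either way. The median was −0.28 (−17.8%) for the members and 0.14 for all genes, all 69 members were negative, and in 45 the mutant libraries were all below the wild-type libraries, as in 19.2% of all genes (17.2% in the other direction). In the same range of counts, 973 of 4922 protein-coding genes were higher and 2411 lower, with a median of −0.14. mrpl-24, a large subunit protein with a bacterial counterpart (chromosome I, 5505391 to 5507023, − strand), had 28.3, 31.7, 30.7, 32.97 and 33.8 CPM in the mutants and 40.02, 44.05, 45.4, 41.2 and 43.6 CPM in wild type. The groups were separate with a log2 fold change of −0.45 (SE 0.05, adjusted p = 4.78e-08). mrpl-11 (−0.36), mrpl-23 (−0.40), mrps-15 (−0.43), mrpl-44 (−0.32), mrpl-9 (−0.37), mrps-22 (−0.36), mrps-18C (−0.28), mrpl-50 (−0.32) and mrps-23 (−0.53) were the rest of the 12 with the smallest p.

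The members not called lower differed between the conditions, and 56 were called lower under both. Without ethanol the 6 were mrpl-18, mrpl-55, mrpl-4, mrpl-49, mrpl-48 and mrpl-20, all of the large subunit, of which mrpl-18, mrpl-55, mrpl-48 and mrpl-20 are named here after their values were seen. mrpl-20 (chromosome II, 13338281 to 13339961, + strand) had 32.1, 29.2, 32.5, 31.1 and 32.7 CPM in the mutants and 33.5, 34.7, 33.7, 32.2 and 27.03 CPM in wild type, which overlap (log2 fold change −0.03, SE 0.07, adjusted p = 0.747). With ethanol the 8 included mrps-11, a counterpart of the bacterial S11 (chromosome V, 12493239 to 12494622, − strand). It then had 54.2, 53.5, 58.1, 54.3 and 56.8 CPM in the mutants and 55.7, 50.3, 60.5, 55.3 and 61.4 CPM in wild type. The groups overlapped, with a log2 fold change of −0.03 (SE 0.05, adjusted p = 0.56). Across the 69 members the log2 fold changes of the 2 conditions had a Pearson r of 0.44 and a Spearman rho of 0.39, given as a description, since all members share the same libraries. The plot of all members with their standard errors shows both conditions side by side.

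**Figure D3:**
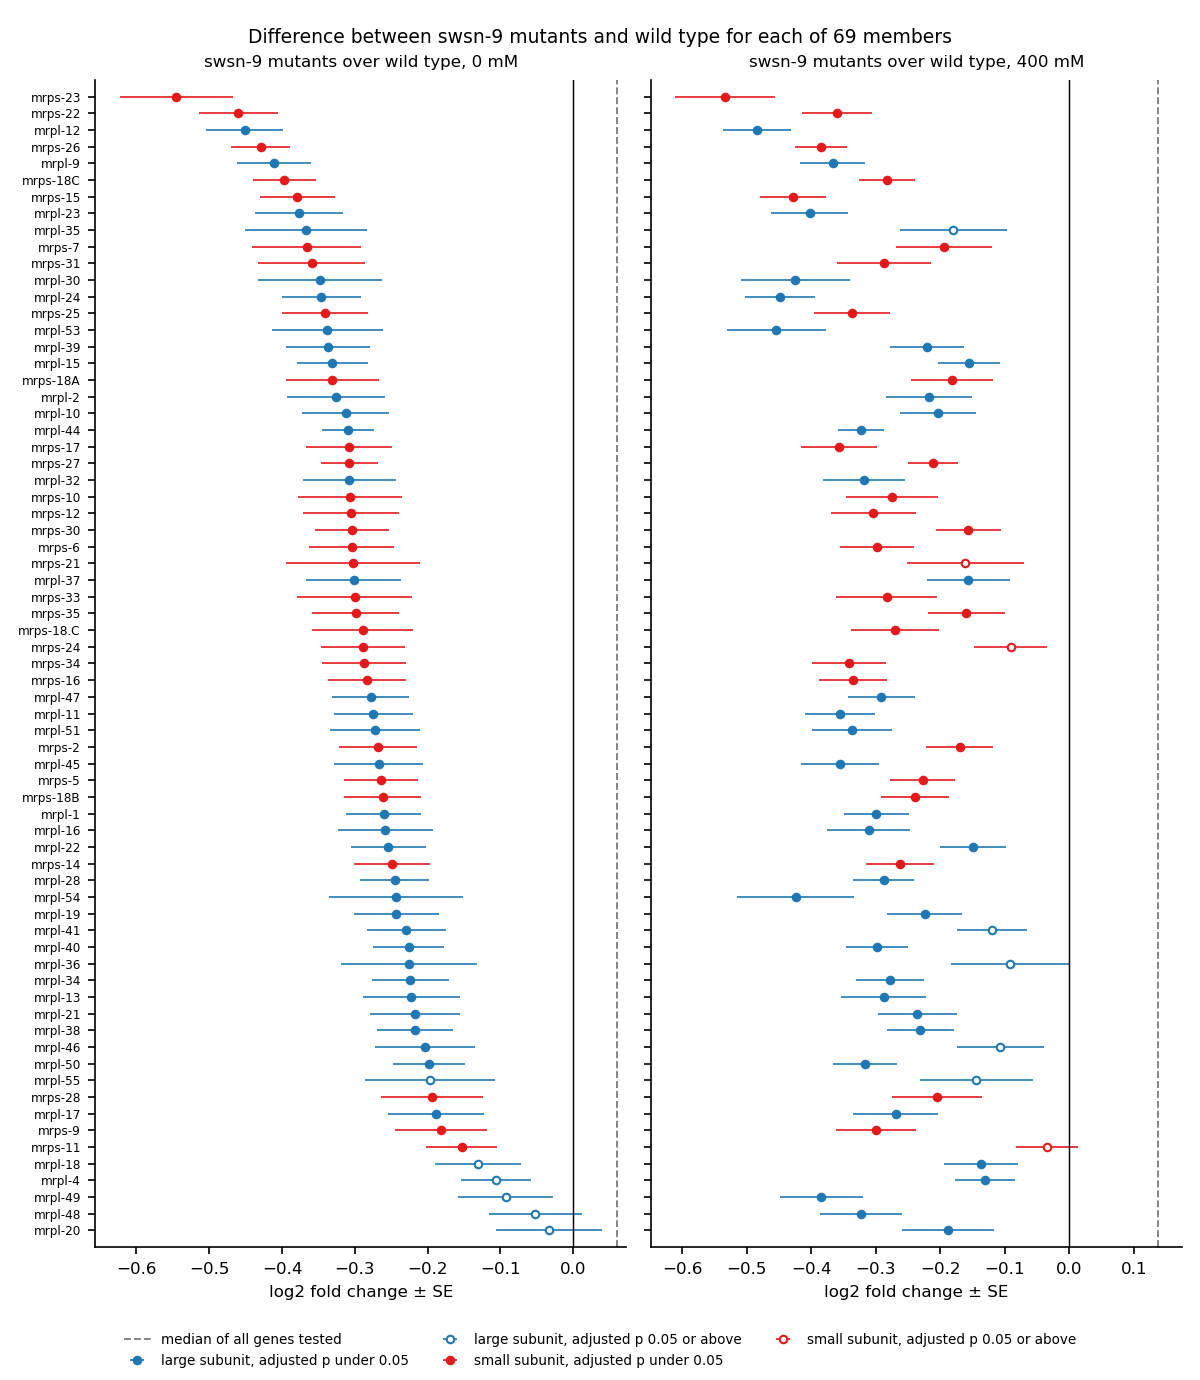
log2 fold change ± SE of swsn-9 mutants over wild type for each of the 69 members, at 0 mM (left) and 400 mM ethanol (right), in the same order in both panels. All points lie left of 0 and of the dashed median of all genes (0.06 at 0 mM and 0.14 at 400 mM), and filled points are the 63 and 61 members called lower.

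The number called depends on the scale. With library totals in place of TMM factors, 14 members were lower without ethanol (median −0.14, 64 of 69 negative) and 19 with ethanol (median −0.11, 55 of 69 negative), and none was higher. The median of all genes then moved to 0.21 and 0.30. A change of scale moves all genes of a comparison by about the same amount. The members' median relative to that of all genes could therefore hardly differ between the scales and is no check of the calls. It was −0.35 on both without ethanol and −0.42 on both with ethanol. When only genes with a mean count of at least 10 were tested, it was −0.27 under both conditions.

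With TMM factors, most translation factors and aminoacyl-tRNA synthetases of mitochondria were also lower in the mutants. The lists of this paragraph were not run under library totals, where fewer members were called. Of 6 translation factors and associated genes, 5 were lower in the mutants without ethanol and 6 with it, tufm-1, an elongation factor, by −0.32 and −0.39 on the log2 scale and oxa-1, which inserts new chains into the inner membrane, by −0.42 and −0.43. Of 12 aminoacyl-tRNA synthetases, which charge transfer RNAs, 10 were lower without and 11 with ethanol, among them vars-1 (−0.27 and −0.18) and iars-2 (−0.25 and −0.42). Of 11 genes of the mitochondrial unfolded protein response and its import partners, 7 and 8 were lower and 1 was higher under each condition. The chaperone hsp-60 changed by −0.53 and −0.86, and the transcriptional regulator dve-1 was higher by 0.68 and 0.72. Of 12 protein genes of the mitochondrial genome itself 2 were lower under each condition, CYTB by −0.35 and −0.42, with ND6 (−0.41) at 0 mM and COX2 (−0.20) at 400 mM. That is 16.7%, against 22.3% and 25.6% of all genes called lower, and their medians were −0.15 and −0.02. The 2 RNAs of the mitochondrial ribosome itself were not called in either comparison, but leaned higher with ethanol (log2 fold changes 0.99 and 1.00). Their summed level was then 58.14 to 70.75 CPM in the mutants and 28.34 to 37.26 CPM in wild type, without overlap. Without ethanol it was 44.99 to 68.07 CPM in the mutants. In wild type it was 323.6 CPM in N2 0 mM replicate 5 and 30.84 to 40.84 CPM in the other libraries. The cytosolic ribosome moved as well: of its 78 protein genes 74 were lower and 2 higher under each condition, with medians of −0.30 and −0.27 and rpl-11.1 at −0.49 and −0.53.

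Markers of cell types also differed between the genotypes, and their part in these results was not tested. All 9 germline markers were lower in the mutants under both conditions, with a summed level of 4373 to 5157 CPM in the mutants and 6540 to 7038 CPM in wild type without ethanol, and of 4452 to 4848 and 5754 to 6487 CPM with it. glh-1 fell by 0.74 and him-3 by 0.37 on the log2 scale without ethanol. Of 9 oocyte markers 8 were lower under each condition, and the other, perm-2, was higher without ethanol (0.29), with sums of 7565 to 9099 CPM in the mutants and 9941 to 11610 CPM in wild type without ethanol, and of 7560 to 7839 and 9684 to 11030 CPM with it. Of 6 neuronal markers 5 were higher without and 4 with ethanol, at 247.5 to 272.1 CPM in the mutants and 203.8 to 221.4 CPM in wild type without ethanol, and at 266 to 307.4 and 209.7 to 231.3 CPM with it. Of 6 body wall muscle markers 3 were higher under each condition, with sums of 3157 to 4330 CPM in the mutants and 2362 to 3456 CPM in wild type without ethanol, and of 3167 to 4176 and 2241 to 3874 CPM with it. Of the remaining lists, 1 and 3 of 6 intestinal, 1 and 2 of 8 sperm, and 2 and 2 of 5 hypodermal markers were higher without and with ethanol, and 1 hypodermal marker was lower under each. No germline, oocyte, neuronal, muscle or intestinal marker was at 0 in any library, whereas the hypodermal dpy-7 and rol-6 were at 0 in at least 1. In whole worms, fewer cells of a type and less RNA per cell cannot be told apart.

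The comparison of exposed with unexposed wild type asks what 18 h of ethanol does to these genes. Immediately after exposure, 5 of 69 members were lower and 2 higher, against 12.8% of 16210 genes called either way, 5.94% lower and 6.81% higher, and 44 members had a negative log2 fold change. The median was −0.05 for the members and 0.01 for all genes. In 5 members all exposed libraries were below the unexposed ones and in 1 above, as in 4.34% and 4.69% of all genes. mrps-22 was lower with ethanol, at 61.8, 71.4, 70.03, 71.6 and 73.2 CPM after 400 mM and 76.9, 86.7, 81.6, 78.8 and 82.8 CPM after 0 mM. The groups did not overlap and the log2 fold change was −0.22 (SE 0.05, adjusted p = 0.00393). dap-3 was also lower, by −0.18 on the log2 scale (SE 0.05, adjusted p = 0.0107).

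The largest fall was that of mrps-35, particular to the mitochondrial small subunit (chromosome V, 18981306 to 18985865, + strand, 11.09% of its exon length overlapping sws-1). It had 57.7, 60.8, 63.1, 52.9 and 59.9 CPM after 400 mM and 72.7, 69.2, 74.3, 64.1 and 71.2 CPM after 0 mM, again with no overlap (log2 fold change −0.25, SE 0.06, adjusted p = 0.01). mrpl-19, with a bacterial counterpart (chromosome I, 4508917 to 4511126, − strand), had 40.1, 45.1, 45.2, 42.95 and 47.5 CPM after 400 mM and 49.7, 49.05, 52.5, 50.6 and 52.5 CPM after 0 mM. Its groups were separate (log2 fold change −0.19, SE 0.05, adjusted p = 0.0138). mrps-18C (−0.15, adjusted p = 0.0312) and mrpl-9 (−0.16, adjusted p = 0.0385) were the other members lower. In the opposite direction, mrpl-4, which encodes a protein that lines the exit tunnel in bacteria, had 38.2, 35.97, 37.1, 37.9 and 38.8 CPM after 400 mM and 35.1, 35.4, 31.6, 32.9 and 33.6 CPM after 0 mM. All 5 exposed libraries were above the unexposed ones (log2 fold change 0.17, SE 0.05, adjusted p = 0.0225), and its upstream neighbour mrps-2 was at 0.05 (SE 0.05, adjusted p = 0.63). mrpl-49, particular to mitochondria (chromosome V, 12728631 to 12729417, + strand), had 22.8, 23.4, 25.9, 27.5 and 29.1 CPM after 400 mM and 21.8, 21.7, 23.1, 22.7 and 22.2 CPM after 0 mM. Its groups overlapped, with a log2 fold change of 0.22 (SE 0.07, adjusted p = 0.0286). Under library totals none was lower and 1 was higher, and without N2 0 mM replicate 2 or replicate 3 the count of 7 became 4. Of the 78 cytosolic ribosomal protein genes 25 were lower in this comparison and none higher, with a median of −0.14. Of the 12 protein genes of the mitochondrial genome, CYTB (−0.24) and ATP6 (−0.26) were lower. hsp-60 was lower (−0.21), whereas atfs-1 (0.26), the factor that drives the mitochondrial unfolded protein response, and clpp-1 (0.21), a protease of the matrix, were higher. Few markers of cell types were called: cgh-1 of the germline (−0.18), act-5 of the intestine (−0.39) and nhr-23 of the hypodermis (−0.20) were lower and ges-1 of the intestine (0.57) was higher. The summed germline markers did not overlap, at 5754 to 6487 CPM after 400 mM and 6540 to 7038 CPM after 0 mM, and 8 of the 9 were negative, with a median of −0.03 and none at 0 in any library. Their part in the members' changes was not tested.

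At 6 h after the end of exposure, 7 of 69 members were lower in the exposed worms and none was higher, against 1.16% of all genes lower, 2.78% higher and 3.94% called either way. The log2 fold change was negative in 65 of 69 members, with a median of −0.11 (−7.61%) against 0.02 for all genes, and in 13 members the exposed libraries were all below the unexposed ones, as in 2.87% of all genes, and in none above, as in 3.6%. At an unadjusted p under 0.05, 29 members differed, and DESeq2 called 14. With edgeR the count was 7 without the library rich in ribosomal RNA (N2R 400 mM replicate 1) and 11 without N2R 0 mM replicate 2. Under library totals it was 4, and the calls for mrpl-12, mrps-18C and mrps-26 were lost. The plot of ethanol and time differences shows most of the set on the lower side at 6 h.

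mrps-22 was again first, with 52.5, 49.98, 56.99, 54.2 and 55.4 CPM in N2R after 400 mM and 65.4, 64.3, 68.7, 68.6 and 63.1 CPM after 0 mM. The groups did not overlap (log2 fold change −0.29, SE 0.05, adjusted p = 0.00118), whereas dap-3 was at −0.13 (SE 0.05, adjusted p = 0.134). mrpl-44 had 285, 273, 290, 291 and 291 CPM after 400 mM and 316, 314, 322, 334 and 323 CPM after 0 mM, with no overlap (log2 fold change −0.17, SE 0.03, adjusted p = 0.00539). mrpl-9 had 46.7, 48.6, 52.7, 49.2 and 50.7 CPM after 400 mM and 57.4, 58.6, 58.96, 58.2 and 61.2 CPM after 0 mM. It was separate too (log2 fold change −0.24, SE 0.05, adjusted p = 0.0079). mrpl-12 had 46.1, 47.7, 51.1, 48.99 and 48.05 CPM after 400 mM and 53.3, 54.6, 59.5, 57.7 and 56.4 CPM after 0 mM (log2 fold change −0.21, SE 0.05, adjusted p = 0.0105). mrps-34, particular to mitochondria (chromosome III, 4541420 to 4542452, − strand), had 42.9, 37.96, 37.7, 43.1 and 39.95 CPM after 400 mM and 45.4, 46.3, 49.8, 49.7 and 47.7 CPM after 0 mM. Both were separate, mrps-34 with a log2 fold change of −0.24 (SE 0.06, adjusted p = 0.0181). mrps-18C (−0.18, adjusted p = 0.021) and mrps-26 (−0.15, adjusted p = 0.0402) completed the 7. mrps-22, mrpl-9 and mrps-18C were the 3 members lower at both times. Immediately after exposure, the call held in 10 of 10 fits without 1 library for mrps-22, in 3 of 10 for mrpl-9 and in 5 of 10 for mrps-18C.

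Of the 78 cytosolic ribosomal protein genes, 1 was lower (rpl-11.1, −0.19) and 1 higher (rpl-25.1, 0.33) at 6 h, with a median of −0.08. None of the translation factors or synthetases was called, and hsp-60 (−0.21, adjusted p = 0.0253) was the one gene of the unfolded protein response lower. Of 6 intestinal markers 3 were higher (vit-2, ges-1 and elt-2), with sums of 53980 to 63740 CPM after 400 mM and 48090 to 53060 CPM after 0 mM, none of them at 0 in any library. gld-1 of the germline (−0.14) was lower and perm-2 of the oocytes (0.16) higher. Their part in the result was not tested.

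**Figure D4:**
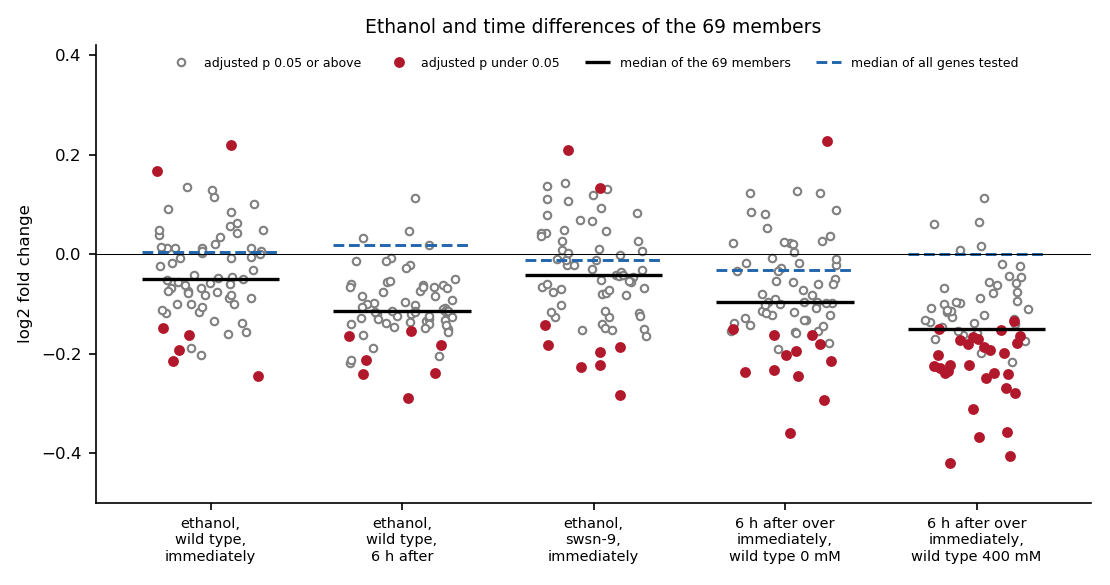
log2 fold change of each of the 69 members (points) in 5 comparisons: 400 mM over 0 mM ethanol in wild type immediately and 6 h after exposure and in swsn-9 mutants, and 6 h after over immediately at 0 mM and at 400 mM. Filled points had an adjusted p under 0.05 and lines are medians of the members (solid) and of all genes (dashed); at 6 h after exposure 65 of 69 members lie below 0, against 44 immediately.

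Whether the response to ethanol differed between the times was tested directly. The difference of the responses (6 h minus immediately) passed in 3 of 69 members, all lower, against 5.28% of all genes either way, 2.18% lower and 3.1% higher. The median was −0.07 for the members and 0.00 for all genes. mrps-34 differed most. Immediately after exposure it had 49.4, 43.05, 48.95, 50.5 and 53.2 CPM at 400 mM and 43.1, 43.6, 46.4, 46.7 and 45.9 CPM at 0 mM, which overlap, with 4 of the 5 exposed libraries above every unexposed one. The difference of the responses was −0.37 on the log2 scale (SE 0.08, adjusted p = 0.00666 by edgeR's quasi-likelihood test) and passed without any 1 of the 20 libraries.

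mrps-6, with a bacterial counterpart (chromosome I, 4173758 to 4174774, − strand), had 34.3, 34.4, 36.9, 38.1 and 34.9 CPM after 400 mM and 36.4, 37.5, 39.5, 43.7 and 43.7 CPM after 0 mM at 6 h. Immediately after exposure it had 46.7, 45.8, 50.5, 48.7 and 47.9 CPM after 400 mM and 43.2, 46.9, 42.7, 45.9 and 41.03 CPM after 0 mM. The groups overlapped at both times, with exposed worms on the lower side at 6 h and on the higher side immediately, and the difference of the responses was −0.30 (SE 0.08, adjusted p = 0.0325). mrpl-44 differed by −0.16 (SE 0.05, adjusted p = 0.0491). The call for mrpl-44 was lost in 15 of 20 fits without 1 library and that for mrps-6 in 7 of 20. The count of 3 became 1 without N2 0 mM replicates 1 or 5, N2 400 mM replicate 3, N2R 0 mM replicates 4 or 5, or N2R 400 mM replicates 1 or 5, and 5 without N2R 0 mM replicate 2, and under library totals it was 1. For mrpl-44 and mrps-6, then, whether the call passed depended on the library left out. Over all alternative runs the difference stayed at −0.247 to −0.148 for mrpl-44 and at −0.382 to −0.275 for mrps-6. The plot of single members by library shows mrps-34 beside others.

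**Figure D5:**
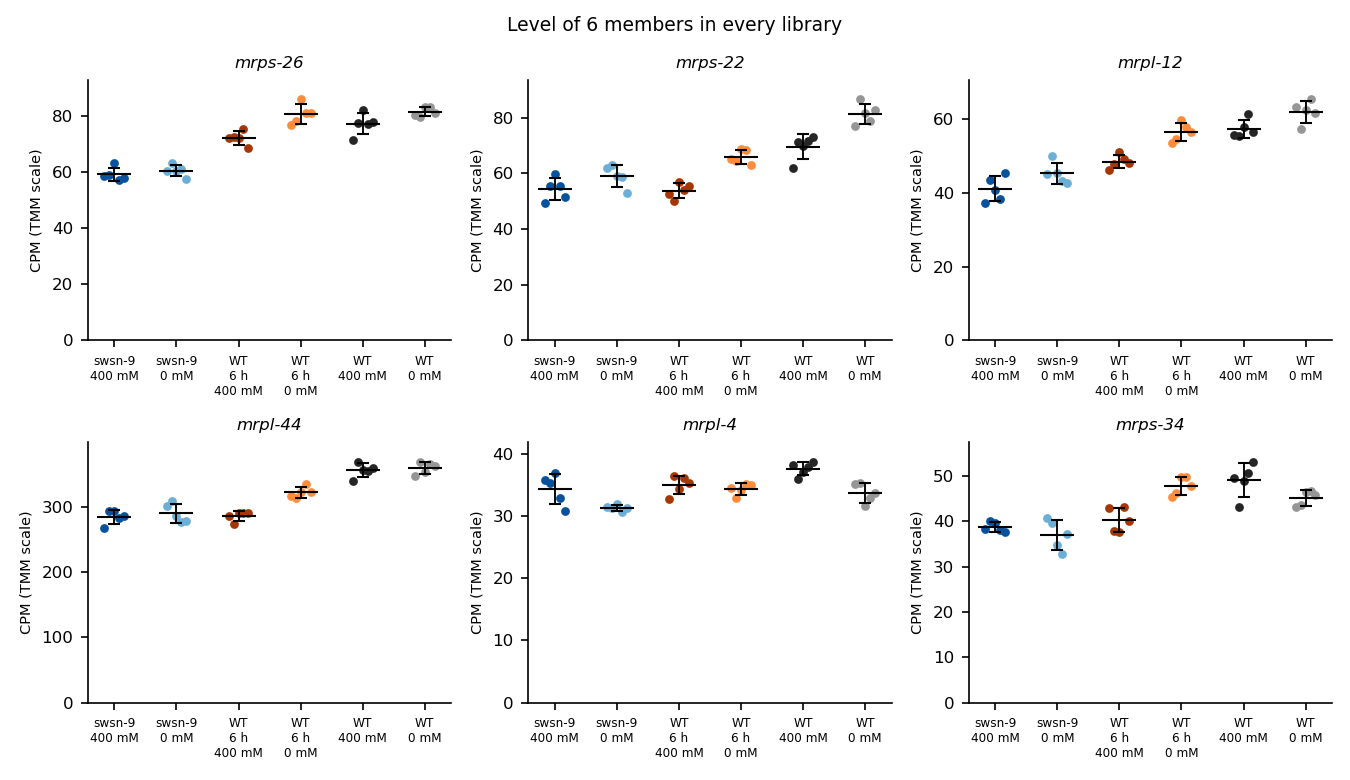
Level of 6 members in every library, in CPM on the TMM scale, by group, with means ± SD of 5. mrps-26, mrps-22, mrpl-12 and mrpl-44 are lowest in the mutants or in N2R 400 mM, mrpl-4 is higher in the exposed worms immediately after exposure, and mrps-34 is lower in the exposed worms at 6 h and not immediately.

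The 6 h between the harvests also separated the wild-type groups. Unexposed, 12 members were lower and 1 higher in N2R than in N2, against 19.1% of all genes called, 10.9% lower and 8.19% higher, a share of members near that of all genes, with medians of −0.10 and −0.03. The libraries were separate in 14 members on the lower and 1 on the higher side, as in 6.55% and 5.6% of all genes. mrpl-37, particular to mitochondria (chromosome II, 13568077 to 13575068, − strand), had 27.6, 27.4, 27.1, 30.4 and 31.2 CPM at 6 h and 34.1, 41.2, 39.2, 36.1 and 34.7 CPM immediately. Its groups were separate (log2 fold change −0.36, SE 0.06, adjusted p = 0.000679). mrps-22 (−0.29), mrpl-44 (−0.15), mrpl-22 (−0.24), mrpl-15 (−0.20), mrps-18C (−0.16), mrps-31 (−0.25), mrpl-41 (−0.19), mrps-14 (−0.18), mrps-28 (−0.23), mrpl-9 (−0.16) and mrpl-2 (−0.22) were the others lower. mrpl-49 was the 1 member higher, with 25.6, 23.8, 27.3, 26.6 and 26.7 CPM at 6 h and 21.8, 21.7, 23.1, 22.7 and 22.2 CPM immediately, without overlap (log2 fold change 0.23, SE 0.07, adjusted p = 0.0183). Without N2R 0 mM replicate 1 or replicate 4 the 13 became 8, and under library totals 3 were lower and 1 higher.

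After exposure, 29 members were lower in N2R than in N2 and none was higher, against 13.7% of all genes lower, 11.3% higher and 25% either way. The median was −0.15 (−9.92%) for the members and 0.00 for all genes, 64 of 69 were negative, and in 17 all libraries at 6 h were below those harvested immediately, as in 9.65% of all genes, and in none above, as in 6.46%. mrps-6, whose values are given above, had separate groups and the largest fall (log2 fold change −0.42, SE 0.06, adjusted p = 1.16e-05). mrpl-44 had the smallest p, with 285 to 291 CPM in 4 libraries and 273 CPM in the other at 6 h, and 339 to 369 CPM immediately (log2 fold change −0.31, SE 0.03, adjusted p = 3.83e-07). mrpl-37 had 25.7, 28.2, 26.2, 24.1 and 26.04 CPM at 6 h and 33.6, 37.04, 34.3, 31.6 and 36.6 CPM immediately, separate again (log2 fold change −0.41, SE 0.06, adjusted p = 5.86e-05). mrps-5, a counterpart of the bacterial S5 at the entry of the messenger RNA (chromosome V, 12563487 to 12565801, + strand), had 81.4, 73.5, 78.2, 79.1 and 79.4 CPM at 6 h and 87.99, 89.96, 96.00, 89.01 and 100.1 CPM immediately. It was also separate (log2 fold change −0.24, SE 0.05, adjusted p = 0.000459). mrps-22 (−0.37), mrpl-12 (−0.24), mrps-34 (−0.28), mrpl-22 (−0.27), mrpl-9 (−0.24), mrpl-47 (−0.25), mrps-23 (−0.36) and mrps-18C (−0.20) completed the 12 with the smallest p, and 25 were lower and 1 higher without the library rich in ribosomal RNA. 10 members were lower over 6 h both with and without exposure.

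The cytosolic ribosomal protein genes were lower over 6 h in 70 of 78 unexposed and 48 of 78 exposed, with none higher. Sperm markers were lower in 7 of 8 under both conditions, with sums of 0.3116 to 18.64 CPM at 6 h and 14.36 to 80.26 CPM immediately without ethanol, and of 0.7288 to 1.868 and 17.38 to 67.5 CPM after it. In 7 of the 8, among them msp-3, msp-19, spe-11 and gsp-3, at least 1 of the 30 libraries was at 0. Oocyte markers were higher in 9 of 9 unexposed and 5 of 9 exposed, with sums of 11770 to 12300 CPM at 6 h and 9941 to 11610 CPM immediately without ethanol, and of 10880 to 12400 and 9684 to 11030 CPM after it, and none was at 0. Of the germline markers, glh-1 (−0.48 and −0.40) and pgl-1 (−0.20 and −0.26) were lower and nos-2 (0.28 and 0.27) higher under both conditions. Intestinal markers were lower in 3 of 6 unexposed, and 2 lower and 2 higher exposed, with sums of 48090 to 53060 CPM at 6 h and 50770 to 55890 CPM immediately without ethanol, and of 53980 to 63740 and 46360 to 57420 CPM after it. Of 6 body wall muscle markers myo-3 (−0.58) and mlc-1 (−0.51) were lower unexposed, where all 6 were negative with a median of −0.33, and none was called exposed. Their sums were 1985 to 2679 CPM at 6 h and 2362 to 3456 CPM immediately without ethanol, and 1980 to 3535 and 2241 to 3874 CPM after it. Of 4 hypodermal markers tested col-19 was lower under both conditions (−0.56 and −0.47), with sums of 695 to 866.8 CPM at 6 h and 841.6 to 1306 CPM immediately without ethanol, and of 769.9 to 1120 and 969.7 to 1503 CPM after it. The part of these cells in the members' levels was not tested.

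In the mutants, 7 of 69 members were lower and 2 higher with ethanol, against 24.3% of all genes called, 14.3% lower and 10.1% higher. The medians were −0.04 and −0.01. The groups were separate in 2 members on the lower and 1 on the higher side, as in 9.01% and 7.91% of all genes. mrpl-50, particular to mitochondria (chromosome II, 8929841 to 8930940, + strand), had 49.3, 49.3, 52.5, 46.6 and 44.3 CPM in RA503 400 mM and 55.99, 57.2, 62.02, 53.1 and 55.2 CPM in RA503 0 mM. It starts 25 bp after the end of cct-2, and its groups were separate (log2 fold change −0.23, SE 0.05, adjusted p = 0.000985). mrps-11 was higher, with 54.2, 53.5, 58.1, 54.3 and 56.8 CPM at 400 mM and 47.4, 49.1, 50.3, 46.1 and 46.5 CPM at 0 mM. Its groups were separate in the other direction (log2 fold change 0.21, SE 0.05, adjusted p = 0.00169), and the call held under every alternative. mrpl-53 (−0.28), mrpl-24 (−0.19), mrps-28 (−0.22), mrpl-19 (−0.18), mrpl-17 (−0.20) and mrpl-12 (−0.14) were the other members lower.

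mrpl-4 was the other member higher, with 35.7, 35.4, 36.8, 32.9 and 30.8 CPM at 400 mM and 31.5, 31.2, 31.9, 30.6 and 31.4 CPM at 0 mM, groups that overlap through replicate 5 at 400 mM (log2 fold change 0.13, SE 0.05, adjusted p = 0.0355). The call for mrpl-4 was lost in 9 of 10 fits without 1 library. The direction of the counts turned with the scale and with the libraries fitted: under library totals 5 members were higher and none lower, and under upper quartile scaling 6 were higher and 5 lower. In a fit of the 10 mutant libraries alone 5 were higher and 2 lower. The calls for mrpl-53, mrps-28, mrpl-19, mrpl-17 and mrpl-12 were lost in that fit. Without RA503 0 mM replicate 1 the count of 9 became 15, and without RA503 400 mM replicates 2, 3 or 5 it became 14, 19 and 17. Of the other lists, 3 of 6 translation factors were lower (tsfm-1 at −0.27), 2 of 12 synthetases (iars-2 at −0.35), and CYTB (−0.31) and ATP6 (−0.31) of the mitochondrial genome. hsp-60 (−0.55) and hsp-6 (−0.25) were lower, and haf-1 (0.55), a peptide exporter of the mitochondrial unfolded protein response, was higher. Of 9 oocyte markers 4 were lower, with sums of 7560 to 7839 CPM at 400 mM and 7565 to 9099 CPM at 0 mM, and of 6 intestinal markers 3 were higher and 1 lower, with sums of 53830 to 65730 and 44610 to 61850 CPM, none of them at 0 in any library. Their part in the members' changes was not tested.

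Whether ethanol acted differently in the mutants was also tested directly, as the difference of the responses (mutants minus wild type, both harvested immediately). None of the 69 members passed, against 4.15% of all genes (2.75% lower and 1.4% higher), by edgeR's quasi-likelihood test or by DESeq2, and 5 had an unadjusted p under 0.05. Without 1 library 0 to 2 members passed, all lower, and at least 1 did in 14 of 20 such fits. The median was 0.00 for the members and −0.01 for all genes. The smallest p was that of mrpl-49. In the mutants it had 20.6, 20.4, 17.2, 20.03 and 20.5 CPM at 400 mM and 20.8, 21.5, 20.01, 22.7 and 19.5 CPM at 0 mM, groups that overlap and lean lower with ethanol where wild type was higher, and the difference of the responses was −0.29 (SE 0.09, adjusted p = 0.0648). Of the other lists, tsfm-1 (−0.25), hsp-60 (−0.33) and the oocyte marker perm-2 (−0.24) passed on the lower side and the intestinal marker asp-1 (0.74) on the higher. All 9 oocyte markers were negative, with a median of −0.15, and their part was not tested. This test and the genotype comparisons above are made from the same 4 groups.

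Members with the same number and different letters were looked at side by side. mrps-18A, mrps-18B, mrps-18.C and mrps-18C stood at 59.2, 56.0, 56.4 and 78.4 CPM per kilobase. With TMM factors all were lower in the mutants under both conditions, by −0.33, −0.26, −0.29 and −0.40 on the log2 scale without ethanol and by −0.18, −0.24, −0.27 and −0.28 with it. Under library totals the call for mrps-18C with ethanol was lost, and values of the others on that scale are not given here. With ethanol in wild type only mrps-18C was called, at both times. mrps-18C (chromosome III, 4935578 to 4937221, + strand) had 96.5, 95.4, 103, 102 and 96.6 CPM after 400 mM and 109, 108, 113, 122 and 111 CPM after 0 mM at 6 h, and 105, 117, 120, 111 and 114 CPM after 400 mM and 121, 131, 134, 124 and 122 CPM after 0 mM immediately. The groups were separate at both times. The coding length of mrps-18C is 1209 bp, against 417 bp in mrps-18.C, 549 bp in mrps-18A and 714 bp in mrps-18B. It also shares its letter with mrps-18.C, so its kinship with the others is known here from the symbol alone. Whether these members differ from each other in their response was not tested.

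mrps-5, the member whose knockdown is in common use, followed the set. It had 77.9, 78.5, 81.7, 74.1 and 65.3 CPM in the mutants and 89.9, 87.8, 97.2, 87.4 and 90.6 CPM in wild type without ethanol, with no overlap (log2 fold change −0.26, SE 0.05, adjusted p = 9.07e-05). With ethanol it had 75.4, 85.7, 80.05, 76.6 and 78.2 CPM in the mutants, against 87.99, 89.96, 96.00, 89.01 and 100.1 CPM in wild type (log2 fold change −0.23, SE 0.05, adjusted p = 0.000364). Its response to ethanol was not called in any of the 3 comparisons of exposed with unexposed worms.

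Within groups the members tended to vary together. After the group means were taken off the log2 CPM of the 30 libraries, the median Pearson r over the 2346 pairs of members was 0.20, and 80.5% of the pairs were above 0. Among 4854 other protein-coding genes in the same range of counts the median was 0.07, and between members and those genes 0.08. These values are a description, since all points share the libraries and their scaling. mrpl-40 (0.80), mrpl-1 (0.75) and mrpl-11 (0.74) went most closely with the mean of the other members, 22 members had an r over 0.5, and mrpl-2 (−0.03) was the only one below 0.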

How the data were processed

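Raw counts per gene were used, as deposited by the authors. Per the paper's methods, each replicate was taken on its own day, exposed and unexposed worms side by side, reads were checked with FastQC and uniquely aligned reads were counted with STAR 2.6.0a (GeneCounts); the strand setting is not stated, and the build is written there as WBcel325. The table held 46739 genes, 21921 of them with no count. Symbols, positions and overlaps came from Ensembl 115 (WBcel235), which held 46484 of the IDs, with 43720 given a symbol. Library totals are in the report. No pair of the 60 within groups agreed within sampling noise (smallest chi-square per gene 3.87). The paper calls the libraries of a group biological replicates. How far their cultures were separate beyond the collection days is not described, so p-values measure the spread between these libraries.

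Genes with a mean count of at least 1 were tested with edgeR 4.0.16 in R 4.3.3 (TMM, quasi-likelihood F test, Benjamini-Hochberg adjustment over all genes, threshold 0.05, no fold cutoff). The wild-type comparisons were fitted in 20 libraries (16210 genes) and those with mutants in all 30 (16934 genes), for 9 comparisons. The SE of a log2 fold change was its size over the square root of F. The fits were tested on simulated counts. Alternatives were other scalings (size factors of DESeq2, upper quartile, library totals, ribosomal RNA genes left out), DESeq2 1.42.0, no filter or a mean of at least 10, other sets of libraries, a replicate block, and each library left out. Library totals and the removal of ribosomal RNA genes were added after the data were seen.

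Members with an adjusted p under 0.05 were named, at most 12 a direction by smallest p, and otherwise the one with the smallest p, with the 3 highest and 3 lowest per kilobase, mrps-5 and those named mrps-18; of other lists at most 3 genes a direction. Bacterial counterparts were those numbered 1 to 36 (mrpl-) or 2 to 21, 24 and 28 (mrps-). The members and lists were chosen with earlier results of these data known. Of the lists, 6 of 12 names of translation factors and 12 of 14 of synthetases were found, and all names of the others.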

Additional observations from a re-analysis of the deposited data

Results flagged for a closer look

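In 6 of 138 sets of 5 libraries (22 members and their sum in each of 6 groups), 1 library lay far from the other 4 by Dixon's criterion, which chance gives in about 1 set in 20. mrps-22 was at 61.8 CPM in N2 400 mM replicate 1, with the others at 70.03 to 73.19. In RA503 400 mM replicate 1, mrpl-19 was at 32.05 (others 38.67 to 41.09) and mrps-27 at 66.93 (others 70.52 to 71.83). In RA503 400 mM replicate 3, mrps-26 was at 63.32 (others 57.28 to 58.91) and mrpl-49 at 17.24 (others 20.03 to 20.64). mrpl-48 was at 32.74 in N2R 400 mM replicate 2 (others 26.11 to 27.61).

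The response to ethanol differed between 6 h and immediately after exposure in 3 members by the direct test of the difference (edgeR's quasi-likelihood test), mrps-34 by −0.37, mrps-6 by −0.30 and mrpl-44 by −0.16 on the log2 scale.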

How the results depend on the processing

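None of the called members named by the rule, at most 12 a direction, changed sign in that comparison under an alternative run. Of all members, 55 of 69 were negative for the mutants over wild type with ethanol under library totals, whereas 61 were called lower with TMM, so at least 6 of those called turned positive. With library totals, the members called were 14 without and 19 with ethanol in the mutants over wild type, 1 immediately after exposure (mrpl-49, higher), 4 at 6 h after it, 1 for the difference of the times, 4 for 6 h at 0 mM and 5 in the mutants exposed over unexposed (higher, where TMM gave 7 lower and 2 higher). The summed level was then 3097, 3023, 2846, 3175 and 3327 CPM in RA503 400 mM, RA503 0 mM, N2R 400 mM, N2R 0 mM and N2 0 mM. A mean count of at least 10 gave 22 members for 6 h at 0 mM, 14 in the mutants with ethanol and 2 for the difference of the genotypes. Immediately after exposure, no filter gave 3 and a fit of the 10 libraries alone 3, and at 6 h DESeq2 gave 14. The causes were not tested.

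Without 1 library the counts were 4 to 8 for ethanol immediately, 5 to 11 at 6 h, 1 to 5 for the difference of the times, 8 to 12 for 6 h at 0 mM, 21 to 38 for 6 h at 400 mM, 9 to 19 for ethanol in the mutants, 0 to 2 for the difference of the genotypes, and 56 to 63 for the mutants over wild type at both concentrations.

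With a replicate block the counts were 7 for ethanol immediately, 10 at 6 h, 3 for the difference of the times, 14 and 27 for 6 h at 0 and 400 mM, 12 for ethanol in the mutants, 0 for the difference of the genotypes and 62 for the mutants over wild type at both concentrations, and the call for mrpl-4 in the mutants was lost. The numbers were not taken to pair the libraries: 0 and 400 mM libraries of the same number deviated together with r of −0.118 to 0.329 (mean 0.105), over 0.1 in 8 of 15 pairs. Over all genes, however, the block raised the calls for ethanol from 2067 to 2932 immediately and from 639 to 1583 at 6 h in wild type. In the mutants they rose from 4119 to 5114.

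Depth was no narrow limit for the members, each with at least 157 counts in every library.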
